A study of Mus musculus with 28 samples.

Results

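The genes expressed midway through the conversion of mouse Pre-B cells into macrophages were compared between 12h of induction and the uninduced state at 0h. A gene entered the comparison when its mean TPM over the 3 libraries of 0h and the 3 of 12h was at least 1, which kept 9106 of the 55450 genes of the expression table. TPM, the share of a library's transcripts on a fixed total, is a relative abundance per length of transcript, and all levels below are TPM after median-of-ratios scaling between libraries, a scaling that sets the typical gene to the same level in each library. Of the 9106 genes, 7828 had a mean of at least 1 at both times, 435 at 0h alone and 843 at 12h alone, so a gene seen at one time only had to differ to be kept. The genes nearest the limit were AC140267.1, Epb41l5 and Lrsam1, with a mean of 1 TPM, on the inside, and Polg2, Zbtb42 and Zfp212, with 0.998, on the outside.

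All libraries came from C10, a Pre-B line of the mouse that derives from HAFTL cells and carries C/EBPαER, a transgene in which C/EBPα is fused to the hormone-binding part of the estrogen receptor. At 0h the cells were uninduced, and for 12h they were cultured with 100 nM β-estradiol, 10 nM IL-3 and CSF-1, so the effects of the 3 agents cannot be told apart. The libraries of 48h, from the same line under the same agents, are set beside those of 12h. As a model, C10 is a single transformed line, its transgene is present at every time point, and the labels call the libraries biological replicates without saying whether they came from separate cultures, so p-values measure the spread between these libraries only. In bulk RNA, fewer cells of a type and less RNA per cell cannot be told apart.

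Pre-B cells depend on the pre-B cell receptor, which pairs the immunoglobulin μ heavy chain with a surrogate light chain and signals through CD79a and CD79b, and on the IL-7 receptor. Pax5, Ebf1 and the E proteins hold the B-lineage program in place. Macrophages depend on PU.1 (Spi1) and the C/EBP factors, on the CSF-1 receptor, and on phagocytic receptors, an oxidase that makes superoxide, and lysosomal proteases. C/EBPα is itself known to slow the cell cycle.

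The scaled libraries were close within a time point. The TPM hold no record of the number of reads, and the sequencing depth that the study lists elsewhere was not used here, so no value carries a counting error. The correlation of log2 levels between libraries ran from 0.847 to 0.89 within 0h and within 12h and from 0.652 to 0.677 between them, over genes that are not independent of each other. A ribosomal RNA locus on chromosome 17 took 76.9% to 79.8% of all TPM at 0h and 72.8% to 79.5% at 12h, and the size factors were 0.84 to 1.03 at 0h and 1.07 to 1.35 at 12h. Replicate 3 had the lowest share of this locus and of mitochondrial genes of its time point at 0h, 12h and 48h. The deposited row of Cebpa, in which reads of the transgene and of the mouse gene cannot be told apart, was at 19.5, 23.3 and 28.5 at 0h and at 11.9, 14.6 and 14.8 at 12h and was not called (log2 fold change -0.77, SE 0.18). From bases that differ between the rat transgene and the mouse gene, the study reported no expression of the mouse gene at any time point. The markers were those of a Pre-B line at 0h. The summed level of 11 Pre-B markers was between 333 and 359 at 0h and between 60.2 and 64.7 at 12h, and all 9 that were tested were lower. The sum of 12 macrophage markers was between 14.7 and 16 at 0h and between 317 and 329 at 12h, with 6 of 8 tested genes higher, and Cd14 and Msr1 were listed at 0 in every 0h library. Of 8 neutrophil markers, Camp and Mmp8 were tested and both were higher, and 4 were listed at 0 at 12h. Markers of T and NK cells, of erythroid cells and megakaryocytes, and of mast cells, basophils and eosinophils had no member above the limit, and their sums stayed at or below 1.65 in every library. Of the fibroblast and endothelial markers only Pecam1 was tested, which was not called, and the sum was between 5.57 and 6.19 at 0h, between 4.75 and 5.45 at 12h and between 9.24 and 10.3 at 48h.

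Between 0h and 12h, 1142 genes rose and 1285 fell, where a gene was called when its adjusted p was under 0.05 and its fold change over 2 (limma with Benjamini-Hochberg adjustment over 9106 genes). These were 12.5% and 14.1% of all genes tested, or 26.7% together. Without scaling, 1749 rose and 747 fell, and the share of called genes that rose went from 47.1% to 70.1%. The median log2 fold change was -0.08, with quartiles of -0.71 and 0.56, and the median standard error was 0.22. The fold change exceeded 4 in 414 genes that rose and 305 that fell, and it exceeded 16 in 106 and 26. All 3 libraries of 12h lay above all 3 of 0h for 2305 genes (25.3%) and below them for 2846 (31.3%), 5151 genes (56.6%) in all. For genes with low levels, fold changes on the log2(scaled TPM + 0.1) scale depend on the 0.1 added. The values are plotted below for every gene, and the groups of genes that follow are each read against these percentages.

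**Figure D1:**
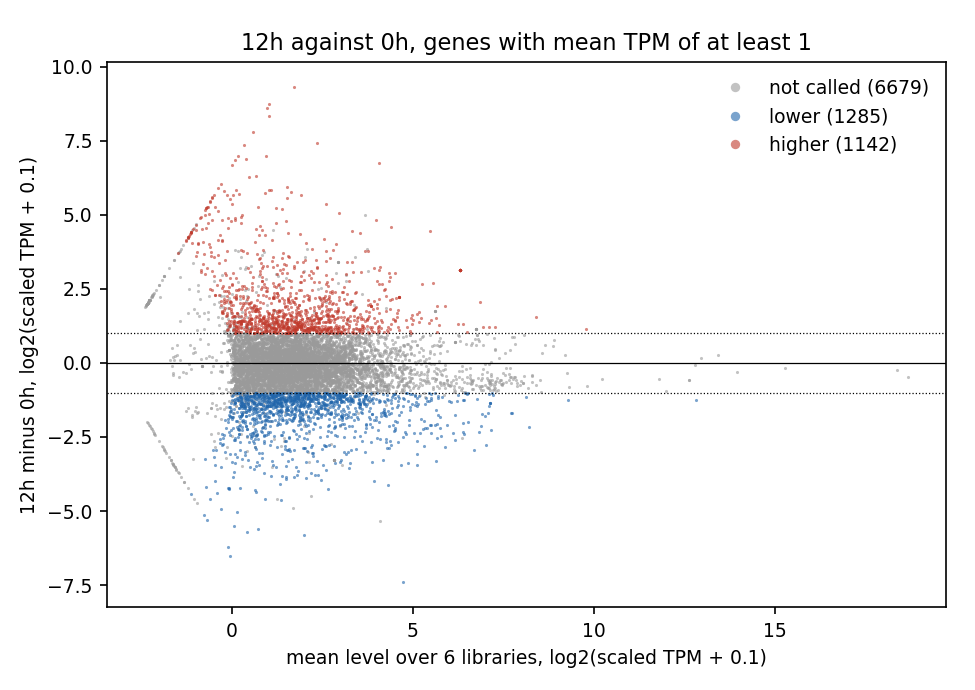
Mean level over both times (x axis, scaled TPM, log axis) and log2 fold change of 12h against 0h (y axis) of the 9106 genes, each a point coloured by its call. The 1142 genes that rose reach further from 0 than the 1285 that fell, and the straight edges are genes listed at 0 in all libraries of one time.

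All 7 genes of the pre-B cell receptor complex fell, with a median log2 fold change of -3.33 against -0.08 for all genes, and their summed level went from 340 ± 11.5 to 53.7 ± 2.43 (SD, n = 3 each). Ighm, the μ heavy chain (chromosome 12, 113418558 to 113422730, minus strand, GRCm38), was at 62, 60.1 and 58.5 in the 0h libraries and at 3.58, 4.08 and 3.47 at 12h, so the groups were far apart. Its log2 fold change was -3.99 (SE 0.12, adjusted p = 6.15e-06, limma). The surrogate light chain is built from Igll1 (λ5) and the VpreB proteins. Igll1 went from 59.4, 55.3 and 50.8 to 6.92, 9.56 and 7.74, and Vpreb1 from 43.4, 51.5 and 45.6 to 4.40, 4.28 and 4.97. Vpreb1 and Vpreb2 are near-identical copies, so reads may have been divided between them and the value of each is uncertain. Vpreb3, a chaperone-like relative, had the second largest decrease of the complex on the log2 scale (-4.12, SE 0.12), after Vpreb2 (-4.58, SE 0.55).

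The signal-transducing chains fell less. Cd79b (chromosome 11, 106311341 to 106314762, minus strand) was at 35.7, 37.4 and 38.1 at 0h and at 10.6, 11.3 and 11.3 at 12h, a log2 fold change of -1.73 (SE 0.11). Cd79a went from 46.8, 53.8 and 60.6 to 21.5, 22.3 and 20.8 (-1.31, SE 0.13), and without scaling its decrease of 0.97 on the log2 scale missed the 2-fold threshold. By mean level, Cd79a (53.7) and Cd79b (37) were below the heavy chain (60.2) at 0h. At 12h they were above it (21.6 and 11.1 against 3.71), on a scale that is per length.

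Below the receptor, the picture was mixed. Of 15 listed signalling genes 11 were tested, 2 rose, 2 fell and 7 were not called. The kinase Lyn, which myeloid cells also use, rose from 6.99, 7.91 and 8.30 to 41.9, 46.7 and 40.9 (log2 fold change 2.47, SE 0.12, adjusted p = 3.73e-05, limma). The adaptor Blnk fell from 5.89, 7.58 and 8.18 to 2.58, 1.54 and 1.34 (-1.97, SE 0.26). Prkcb, a protein kinase C, rose from 0.775 ± 0.176 to 2.36 ± 0.533 (SD, n = 3 each), a call that a pseudocount of 1 ended. For the kinases Syk (log2 fold change 0.25, SE 0.13) and Btk (-0.17, SE 0.15) and the phospholipase Plcg2 (-0.27, SE 0.11) the threshold was not met.

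Of the B-lineage transcription factors, 14 of the 18 tested (20 listed) fell and none rose. Their median log2 fold change was -2.17, and their summed level went from 225 ± 4.95 to 62.3 ± 2.88 (SD, n = 3 each). Bach2 of this list entered through its 0h level alone, as did Vpreb2 above and Rag2, Il7r, Cd22 and Cdc6 of lists below. The counts and medians of the lists that fell were thus partly set by the expression limit. Pax5, which maintains B-cell identity, went from 16.5, 19.0 and 20.1 to 2.59, 2.87 and 2.34 (chromosome 4, 44524757 to 44710487, minus strand; log2 fold change -2.79, SE 0.14). Ebf1, which acts with it, went from 17.9, 17.0 and 15.6 to 2.78, 2.74 and 3.56 (-2.44, SE 0.15). The groups did not overlap for either gene. The E protein gene Tcf3 fell (-2.12, SE 0.14), while Tcf4, its relative, was at 9.52 ± 0.889 and 8.11 ± 0.428 (SD, n = 3 each) and was not called (-0.23, SE 0.13). Lef1, a Wnt-pathway factor of early B cells, fell from 27.4, 34.4 and 31.4 to 3.27, 2.82 and 2.56 (-3.39, SE 0.15). The largest decrease of the list was in Bach2, which restrains myeloid genes in B-cell progenitors, from 6.10, 4.06 and 4.86 to 0.141, 0.0539 and 0.436 (-4.22, SE 0.48). Myb (-2.18), Bcl11a (-2.97), Sox4 (-2.95), Aff3 (-2.63), Foxo1 (-2.31), Pou2af1 (-2.16), Hdac7 (-1.96), Erg (-1.82) and Id3 (-1.37) also fell, and the call of Id3 was lost under several settings. Ikzf1 (-0.77, SE 0.13), Irf4 (-0.11, SE 0.27) and Ets1 (0.12, SE 0.28) were not called.

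Among genes of V(D)J recombination and end joining, 8 of 16 were tested, 5 fell and 1 rose. Rag2, a subunit of the recombinase, was at 3.13, 1.78 and 1.48 at 0h, and every 12h library listed it at 0. Hmgb1 and Hmgb2, DNA-bending proteins that assist the recombinase and do much else, went from 84.1 ± 5.37 to 37.6 ± 2.94 and from 38 ± 4.09 to 12 ± 2.79 (SD, n = 3 each), and Hmgb1 missed the fold threshold without scaling. Xrcc5 (-1.47, SE 0.22) and Xrcc6 (-1.54, SE 0.18), the Ku proteins of end joining, fell too. Dclre1c, the Artemis nuclease that opens hairpin ends, rose (log2 fold change 2.36, SE 0.34, adjusted p = 0.00166, limma).

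Of the IL-7 receptor and STAT5 list, 10 of 13 genes were tested, 1 fell, 3 rose and 6 were not called. Il7r (chromosome 15, 9505788 to 9530176, minus strand) was at 7.89, 7.95 and 8.34 at 0h and at 0.0281, 0 and 0 at 12h, the only member of this list that fell. The common γ chain Il2rg, which pairs with Il7r, went from 4.49 ± 0.921 to 8.88 ± 0.99 (SD, n = 3 each) and missed the fold threshold (log2 fold change 0.98, SE 0.18), although it was called higher under each of the other 4 scalings, at 1.02 to 1.31. The kinases Jak1 (-0.04, SE 0.12) and Jak3 (0.22, SE 0.15) and the factors Stat5a (-0.05, SE 0.19) and Stat5b (0.03, SE 0.18) were not called. Socs3, a feedback inhibitor of cytokine signalling, rose from 0.116, 0.0543 and 0.0476 to 3.82, 6.48 and 5.11 (4.91, SE 0.35). Socs2 (1.74, SE 0.48) and Crlf2 (1.24, SE 0.23), a relative of the common γ chain, rose as well, and the call of Socs2 was lost when any of 4 libraries was left out.

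Of the B-lineage surface proteins, 11 of 17 were tested, 6 fell and 2 rose. Cd37, a tetraspanin, went from 60.9, 61.3 and 66.7 to 12.0, 10.2 and 11.3 (log2 fold change -2.49, SE 0.12). Cd24a, a glycoprotein of B-cell precursors, went from 32.3, 29.8 and 26.2 to 4.34, 4.36 and 3.08 (-2.89, SE 0.18). The inhibitory receptors Cd22 (-3.93, SE 0.30) and Cd72 (-3.05, SE 0.34) and the chemokine receptor Cxcr4, which holds precursors in the bone marrow (-3.20, SE 0.30), fell by similar amounts or more. Bst1 (2.02, SE 0.33) and Cd38 (3.45, SE 0.27), both ectoenzymes of NAD metabolism, rose. Cd38 was at 0.611, 0.782 and 0.357 at 0h and at 7.55, 7.57 and 6.33 at 12h, without overlap.

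**Figure D2:**
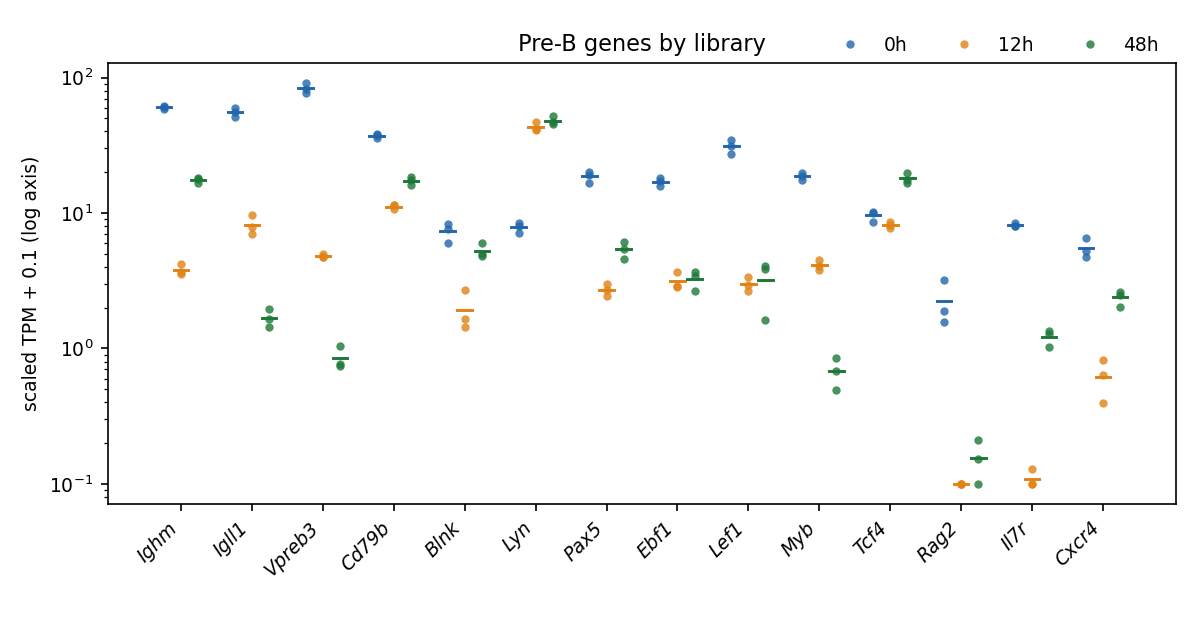
Level of 14 Pre-B genes (scaled TPM + 0.1, log axis) in each library at 0h, 12h and 48h, with points for libraries and short bars for time-point means. Ighm, Igll1, Vpreb3, Pax5, Ebf1 and Il7r lie lower at 12h than at 0h in every library, Lyn lies higher, and Tcf4 is at a like level at 0h and 12h.

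Of the myeloid transcription factors, 17 of 26 were tested, 8 rose and none fell. Without scaling 12 rose. Spi1 encodes PU.1, a factor needed for macrophages that B-cell precursors also carry at a lower level. It was at 8.63, 8.01 and 8.51 at 0h and at 30.6, 31.1 and 30.7 at 12h (chromosome 2, 91082390 to 91115756, plus strand; log2 fold change 1.87, SE 0.11, adjusted p = 4.86e-05, limma). Cebpb, a C/EBP factor of mature myeloid cells, rose from 2.85, 2.96 and 2.92 to 11.4, 14.1 and 15.7 (2.19, SE 0.15). Fosl2, an AP-1 subunit, was at 0.0194, 0 and 0.0238 at 0h and at 5.98, 6.83 and 6.27 at 12h. Id2, an inhibitor of E proteins, rose from 0.349, 0.543 and 0.464 to 4.06, 3.82 and 4.14 (2.91, SE 0.22). Cebpd (4.08), Nr4a1 (2.05) and Gfi1 (1.67) rose (a pseudocount of 1 ended the call of Gfi1), and Nfil3 was listed at 0 in every 0h library and reached a mean of 2.09 at 12h. Irf8, which both lineages use, was at 20.4 ± 2.33 and 12.3 ± 1.13 (SD, n = 3 each) and was not called (-0.72, SE 0.14), as were Fos (-0.62, SE 0.13), Jun (0.42, SE 0.15) and Egr1 (0.87, SE 0.13).

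Receptors for myeloid growth factors and cytokines rose in 8 of 15 tested genes (20 listed), with a summed level that went from 37.3 ± 3.37 to 165 ± 10.1 (SD, n = 3 each). Csf1r, the receptor of the CSF-1 in the culture, was at 0.136, 0.467 and 0.310 at 0h and at 8.62, 8.6 and 8.06 at 12h (log2 fold change 4.49, SE 0.33, adjusted p = 1.11e-04, limma). Csf2rb, the β chain shared by the receptors of IL-3, IL-5 and GM-CSF, reached a higher level, from 1.99, 2.01 and 3.62 to 58.8, 54.9 and 44.7 (4.37, SE 0.25). Csf2rb and its neighbour Csf2rb2 are near-identical copies, so the split between them is uncertain. Csf2ra, the GM-CSF chain, rose 2.94 on the log2 scale (SE 0.15), and Il3ra, the IL-3 chain, was at 2.19 ± 0.506 and 4.29 ± 1.08 (SD, n = 3 each) and was not called (0.93, SE 0.25). Il6ra (3.00), Il17ra (2.12), Tgfbr2 (1.57) and Ifngr2 (1.15) rose, the last with a call that was lost without any of the 3 libraries of 12h. Ifngr1, the partner of Ifngr2, did not pass the threshold (0.02, SE 0.19).

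For the recognition of microbes, 6 of 8 tested genes rose, out of 25 listed, of which 17 were below the expression limit. Cd14 and Tlr2 entered through their 12h level alone, so the count of tested genes that rose was partly set by the limit. Cd14, the co-receptor for lipopolysaccharide, was listed at 0 in all 0h libraries and was at 39.6, 46.9 and 41.1 at 12h. Tlr2, a receptor for bacterial lipoproteins, rose from 0.252, 0.304 and 0.429 to 23.0, 24.2 and 22.1 (log2 fold change 5.78, SE 0.19). Clec7a (dectin-1, for fungal β-glucan) rose by 3.16 on the log2 scale and Nlrp3, the sensor of an inflammasome, by 4.11. Tlr4 (1.12) and Myd88 (1.13) rose less, and a pseudocount of 1 ended both calls. Ly96, the protein that lets TLR4 bind lipopolysaccharide, was at 1.16, 1.04 and 1.25 at 0h and at 1.76, 1.43 and 0.369 at 12h, overlapping groups.

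Of the receptors for antibody and for clearance, 9 of 20 listed were tested and 8 rose, with a median log2 fold change of 3.42. Members near 0 at 0h, such as Tyrobp, Fcgr3, Fcgr1 and Lilrb4a, entered through their 12h level alone. The count of tested genes that rose was therefore partly set by the limit. The same holds for Camp, Mmp8, Mmp12, Serpinb1a and Prtn3 among the granule proteins. Fosl2, Nfil3, Csf1r, Anxa2 and Anxa3, of other lists, entered in the same way. So did Ncf1, Id2, Socs3, Cd38, Cd74 and Prkcb, among others, and the counts of genes that rose in their lists carry the same limit. Tyrobp (DAP12), the adaptor of several activating receptors, went from 0.301, 0 and 0 to 10.3, 13.2 and 13.8 (6.29, SE 0.55). Fcgr3, an activating IgG receptor, went from 0.126, 0 and 0 to 4.56, 4.33 and 4.55, and the inhibitory Fcgr2b, which B cells also carry, from 9.57, 7.56 and 6.67 to 48.1, 43.3 and 44.4 (2.51, SE 0.16). Sirpa, the CD47 receptor, went from 3.27, 2.11 and 2.75 to 27.9, 30.6 and 30.0 (3.42, SE 0.18). Cd68, a lysosomal glycoprotein much used as a macrophage marker, was at 2.74, 2.68 and 2.1 at 0h and at 2.96, 2.20 and 2.36 at 12h, overlapping groups with a log2 difference of -0.00 (SE 0.19).

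Integrin genes moved in both directions, with 8 of 12 tested. Itgam, which the study used as a macrophage gene, was below the limit and not tested, as were Itgax, Itgb3 and Itgb5. Itgb2 (2.36, SE 0.19) and Itgal (2.78, SE 0.14), the chains of LFA-1, and Itgb7 (3.75, SE 0.70) rose. Itgal was at 3.29, 3.90 and 3.42 at 0h and at 23.0, 23.9 and 28.0 at 12h. Itga6 (-1.34, SE 0.18), a laminin receptor chain, and Itgav (-1.16, SE 0.38) fell, and the call of Itgav was lost under several settings.

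Of the 7 genes of the phagocyte NADPH oxidase, all tested, 4 rose. Cybb, the catalytic subunit (chromosome X, 9435252 to 9487771, minus strand), went from 2.89, 2.12 and 3.95 to 92.5, 82.7 and 77.3 (log2 fold change 4.81, SE 0.22, adjusted p = 2.93e-05, limma). Ncf1, the organizing cytosolic subunit, went from 0.369, 0.445 and 0.488 to 25.8, 24 and 31.8 (5.67, SE 0.17). Cyba, the membrane partner of Cybb, rose less (1.47, SE 0.19), from a level of 13.2 ± 3.11 (SD, n = 3). Ncf4 (0.65, SE 0.18) and the GTPases Rac1 (0.65, SE 0.11) and Rac2 (-0.75, SE 0.13) were not called.

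Lysosomal genes split. Of 20 tested (26 listed) 7 rose, 1 fell and 12 were not called, and without scaling 13 rose. The summed level went from 118 ± 3.81 to 530 ± 3.28 (SD, n = 3 each). The largest level at 12h was that of Ctsc, which activates granule proteases. Ctsc went from 8.22, 8.66 and 11.4 to 214, 219 and 190 (chromosome 7, 88278085 to 88310888, plus strand; log2 fold change 4.46, SE 0.16). Ctsd, an aspartic protease, went from 5.06, 5.14 and 6.29 to 50.1, 53.3 and 52.8 (3.23, SE 0.13), and Psap, the saposin precursor, from 14.7, 14.1 and 16.7 to 93.2, 94.3 and 99.6 (2.65, SE 0.12). Ctsz (2.66), Ctsb (1.90) and Grn (1.51) rose. Lgmn, an asparaginyl protease, fell from 8.96, 9.85 and 9.01 to 3.31, 3.63 and 2.70 (-1.51, SE 0.15). Ctss, the protease that trims the invariant chain, was at 6.86, 8.32 and 6.55 and at 5.38, 4.82 and 5.21, and the difference of -0.48 (SE 0.14) missed the fold threshold. The membrane proteins Lamp1 (0.76, SE 0.13) and Lamp2 (0.89, SE 0.20) also missed it.

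Granule and acute phase proteins had 6 of 19 genes above the limit, and all 6 rose. All but Lyz2 entered through their 12h level alone, so this count was largely set by the limit. The summed level of the list went from 2.74 ± 0.772 to 234 ± 20.4 (SD, n = 3 each). Lyz2, lysozyme (chromosome 10, 117277331 to 117282321, minus strand), which supplied most of it, went from 1.46, 1.67 and 1.46 to 161, 177 and 187 (log2 fold change 6.74, SE 0.12, adjusted p = 5.90e-07, limma). Lyz2 has a near-identical copy in Lyz1, so the division of reads between them is uncertain. Serpinb1a, which inhibits neutrophil proteases, went from 0.466, 1.21 and 1.05 to 32.1, 39.8 and 45.8 (5.36, SE 0.33), and Camp, the cathelicidin of neutrophil granules, from 0, 0.196 and 0 to 6.20, 7.76 and 8. Mmp8, the neutrophil collagenase, was listed at 0 at 0h and was at 7.58, 5.25 and 5.08 at 12h. Mmp12, the macrophage elastase, went from 0, 0 and 0.0238 to 2.55, 2.35 and 2.09. Prtn3, a serine protease of early granules, rose by 2.94 on the log2 scale (SE 0.68).

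The promoters of 2 of these myeloid genes, Mmp8 and Fcgr3, hold a match to TTGCNNAA, the core letters of a C/EBP site, and are shown as examples because the transgene encodes a C/EBP factor. They are the 250 bases before a RefSeq start in GRCm38.p6, 5′ to 3′ on the strand of the gene, with the match on either strand in capitals. The match begins 19 bases before the start in Mmp8 (chr9:7558179-7558428, plus strand) and 28 bases before it in Fcgr3 (chr1:171059404-171059653, minus strand), which has 2 promoters in the table. Both genes were picked after their values were seen.
Mmp8: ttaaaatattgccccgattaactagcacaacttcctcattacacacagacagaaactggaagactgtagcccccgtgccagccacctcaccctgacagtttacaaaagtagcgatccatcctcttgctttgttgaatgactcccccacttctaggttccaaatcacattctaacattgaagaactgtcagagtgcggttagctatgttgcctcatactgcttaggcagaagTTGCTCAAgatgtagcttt
Fcgr3: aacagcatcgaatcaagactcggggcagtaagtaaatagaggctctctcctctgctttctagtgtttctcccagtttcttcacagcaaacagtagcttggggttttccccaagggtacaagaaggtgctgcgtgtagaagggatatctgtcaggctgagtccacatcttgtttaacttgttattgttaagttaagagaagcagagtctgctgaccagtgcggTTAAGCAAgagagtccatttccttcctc

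The same letters occurred in 9.78% of the 1033 promoters of genes that rose, 6.92% of the 1142 of genes that fell and 6.89% of the 6209 of genes not called. Over all 32851 promoters of the RefSeq table the share was 9.56%, and over the 8384 promoters of the tested genes that matched by symbol (6536 genes) it was 7.25%. Of the 17 promoters of the granule list, expressed or not, 7 held the match (41.2%), and of the 17 of the antibody and clearance receptors 4 did (23.5%). These were the highest shares of promoters among the 28 lists. Counted by gene, 3 of 16 antibody and clearance receptors held the match, against 3 of 11 genes of pre-BCR signalling and 5 of 20 of microbial recognition. Lists that did not rise as a group also held it, such as pre-BCR signalling (3 of 15 promoters), and it was in none of the 8 promoters of the integrins, none of the 3 of the NADPH oxidase, 2 of 24 of the actin list (8.33%) and 2 of 19 of the chemokine list (10.5%). A match describes the letters and is no measure of binding.

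Chemokines, cytokines and their receptors rose in 9 of 12 tested genes (25 listed), with a median log2 fold change of 4.05. Il1rn, Il1b, Ccl9 and Ccl2, near 0 at 0h, entered through their 12h level alone, so this count and median were partly set by the limit. Il1rn, the IL-1 receptor antagonist (chromosome 2, 24336853 to 24351494, plus strand), went from 0.0776, 0 and 0.0238 to 86.8, 82.9 and 79.1, the largest log2 increase among genes with a mean of at least 5 when 0.1 was added. With 0.01 added, those of Cd14 and Hp were larger (12.05 and 11.91 against 11.39). Il1b itself was listed at 0 at 0h and was at 24.4, 18.3 and 24.8 at 12h. Ccl9, a CCR1 ligand, went from 0.485, 0.467 and 0.0834 to 63.5, 65.5 and 71.1, and Ccl2, the ligand of CCR2, from 0, 0 and 0.0834 to 16.7, 14.1 and 12.5. The receptor Ccr1 rose (4.72, SE 0.44). Ccr2 did not pass the threshold, with libraries of 2.38, 1.47 and 1.21 at 0h and 2.77, 2.95 and 3.10 at 12h (0.82, SE 0.25). Tnf (0.82, SE 0.13) and Tgfb1 (0.02, SE 0.13) were not called.

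Genes of the actin cytoskeleton, annexins and S100 proteins rose in 13 of 20 tested (24 listed), and their summed level went from 330 ± 27.3 to 733 ± 83.8 (SD, n = 3 each). Flna, an actin crosslinker, went from 8.50, 8.09 and 6.79 to 55.9, 63.0 and 76.6 (log2 fold change 3.04, SE 0.16), Lcp1 (L-plastin) from 27.7, 25.4 and 25.7 to 99.6, 99.4 and 99.0 (1.92, SE 0.10), and Vim (vimentin) from 45.7, 49.9 and 47.8 to 105, 109 and 146 (1.31, SE 0.15). The third 12h library, which had the highest size factor, was the highest for Flna and Vim, and leaving it out changed neither call. The myosin Myo1f (4.15, SE 0.31) and the annexins Anxa1 (2.99), Anxa4 (3.20) and Anxa5 (1.75) rose, and Anxa2 and Anxa3, listed at 0 in the 0h libraries, reached means of 2.96 and 4.35. S100a6 (0.32, SE 0.25), S100a10 (0.57, SE 0.14), Coro1a (0.33, SE 0.21) and Lsp1 (0.14, SE 0.12) were not called.

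**Figure D3:**
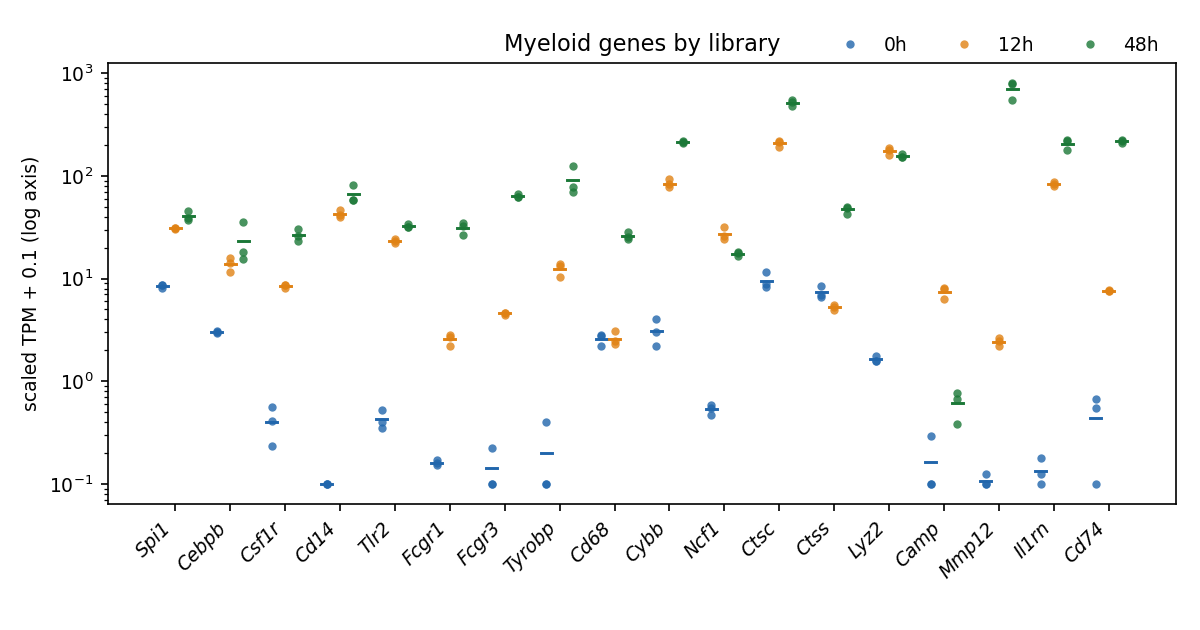
Level of 18 myeloid genes (scaled TPM + 0.1, log axis) in each library at 0h, 12h and 48h, with points for libraries and short bars for time-point means. Lyz2, Spi1 and Tlr2 lie near their 48h level at 12h, Cd68 and Ctss lie near their 0h level, and Camp is highest at 12h.

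Genes of lipid handling rose in 4 of 8 tested (15 listed) and fell in 1. Plin2, which coats lipid droplets (3.44, SE 0.28), Soat1, which esterifies cholesterol (2.15, SE 0.16), Alox5ap, which serves leukotriene synthesis (2.13, SE 0.31), and Ptgs2, the inducible prostaglandin synthase (5.26, SE 0.37), rose, whereas Ptgs1, its constitutive relative, fell (-1.41, SE 0.21). Soat1 was at 6.47, 9.02 and 8.45 at 0h and at 37.3, 32.9 and 36.3 at 12h. In contrast, none of the 18 genes of cholesterol synthesis was called at 12h (limma). At an unadjusted p under 0.05, 2 were higher and 2 lower, and no other tool was run. Over the list, the log2 difference ran from -0.45 to 0.67 with a median of 0.00.

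For antigen presentation, Cd74, the invariant chain of MHC class II, went from 0, 0.565 and 0.453 to 7.67, 7.41 and 7.46 (log2 fold change 4.52, SE 0.69). The peptide loaders H2-DMa (1.34) and H2-DMb2 (1.41) rose from means under 1, both calls ended with a pseudocount of 1, and H2-DMb1 and H2-DMb2 are near-identical copies whose split is uncertain. H2-DMb1 (0.21) and H2-Ob (-0.57) were tested and not called. The other 5 of the 10 listed class II genes (H2-Aa, H2-Ab1, H2-Eb1, H2-Oa and Ciita) were below the limit. Of the 12 class I genes, all tested, only Nlrc5, their transactivator, was called (1.24, SE 0.14), and a pseudocount of 1 ended it. The class I light chain B2m was at 91.3, 88.4 and 83.6 and at 172, 162 and 113, apart but under the fold threshold (0.74, SE 0.18), and H2-K1 was at 54.3 ± 13.9 and 47.4 ± 5.39 (SD, n = 3 each).

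DNA replication genes fell nearly as a group. Of 21 genes tested (22 listed), 20 fell, under all 5 scalings tried, with a median log2 fold change of -2.90 and a summed level that went from 316 ± 7.8 to 50.6 ± 3.8 (SD, n = 3 each). The 6 subunits of the MCM helicase fell by 2.76 to 3.54 on the log2 scale. Mcm6 (chromosome 1, 128331590 to 128359664, minus strand) was at 25.7, 24.3 and 22.9 at 0h and at 2.33, 3.67 and 2.82 at 12h (-3.02, SE 0.18, adjusted p = 5.54e-05, limma). Pcna, the sliding clamp, went from 52.4, 56.3 and 48.4 to 6.84, 6.31 and 8.33 (-2.86, SE 0.14), and Cdc6, which loads the helicase at origins, from 3.55, 3.99 and 3.45 to 0.159, 0.252 and 0.185 (-3.67, SE 0.27). Lig1, which joins Okazaki fragments, had the largest decrease (-3.78, SE 0.22). Tyms, thymidylate synthase, was the exception, with 10.6, 14.4 and 15.3 at 0h and 10.4, 9.52 and 11.2 at 12h, overlapping groups (-0.35, SE 0.17).

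Replication genes are classical targets of E2F factors, so the promoters of Mcm6 and Cdc6 are printed with the matches to TTTGGCGC or TTTCCCGC, on either strand, in capitals. The 250 bases lie before the RefSeq start in GRCm38.p6, 5′ to 3′ on the strand of the gene. Mcm6 (chr1:128359706-128359955, minus strand) has matches that begin 110 and 47 bases before the start, and Cdc6 (chr11:98907901-98908150, plus strand) 1 match, 138 bases before it. Both were picked after their values were seen.
Mcm6: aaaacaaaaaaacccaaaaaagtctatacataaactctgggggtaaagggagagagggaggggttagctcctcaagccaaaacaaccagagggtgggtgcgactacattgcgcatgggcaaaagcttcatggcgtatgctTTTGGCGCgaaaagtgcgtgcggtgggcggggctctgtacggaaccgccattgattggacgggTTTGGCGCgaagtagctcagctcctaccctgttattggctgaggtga
Cdc6: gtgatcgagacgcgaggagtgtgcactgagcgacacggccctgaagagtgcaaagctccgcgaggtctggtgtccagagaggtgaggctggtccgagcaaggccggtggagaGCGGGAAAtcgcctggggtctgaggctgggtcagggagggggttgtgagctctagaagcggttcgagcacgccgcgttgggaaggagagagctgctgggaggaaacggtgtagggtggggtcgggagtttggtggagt

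A match to either form was present in 5 of the 21 promoters of the replication list (23.8%). It was also in 4 of 17 of the MYC and nucleolar list (23.5%) and in 2 of 12 of MHC class I (16.7%), where no gene fell, and in none of the 16 of the mitosis list. It occurred in 4.99% of promoters of genes that fell, 1.84% of those of genes that rose and 2.59% of those not called, against 2.83% for all tested genes and 1.30% for all promoters of the table.

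The mitosis genes fell less at this time. Of 20, all tested, 13 fell, with a median log2 fold change of -1.04, close to the fold threshold, so the count moved with the scaling: it was 5 without scaling, 9 after rescaling without the 20 most abundant genes and 11 after quantile normalization. Ccna2 (cyclin A2) went from 15, 15.4 and 14 to 5.02, 4.09 and 4.23 (-1.72, SE 0.13), and Aurkb, Top2a and Kif11 fell by 1.82, 1.53 and 1.57 on the log2 scale. Mki67, the Ki-67 antigen of cycling cells, was at 14.2, 12.4 and 11.9 and at 8.66, 7.11 and 5.75, separate groups under the fold threshold (-0.84, SE 0.18). Aurka (-0.50, SE 0.18), Bub1 (-0.80, SE 0.36) and Tpx2 (-0.58, SE 0.18) were not called.

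Among G1 regulators, 11 of 19 tested genes fell (22 listed) and 2 rose, and 7 fell without scaling. The kinases Cdk6 (-2.07, SE 0.17) and Cdk4 (-1.59, SE 0.13) and the cyclins Ccnd1 (-1.40, SE 0.19), Ccnd3 (-1.03, SE 0.13) and Ccne2 (-2.65, SE 0.40) fell, and Ccnd3 fell short of the fold threshold under every other scaling. Cdkn1a (p21), an inhibitor of cyclin-dependent kinases, rose from 1.46, 2.36 and 1.07 to 14.0, 13.6 and 12.4 (3.02, SE 0.27). Cdkn1b (0.33, SE 0.29), Cdkn2a (0.14, SE 0.16) and Cdkn2d (0.29, SE 0.23) were not called. Cdk6, at 23.3, 31.0 and 32.9 at 0h and at 6.59, 7.47 and 6.32 at 12h, did not overlap between times.

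The MYC network and nucleolar genes went the same way, with 12 of 17 tested lower (18 listed) and 2 higher. Myc itself went from 31.6, 31.2 and 34.2 to 11.7, 11.6 and 8.48 (-1.61, SE 0.16), and its antagonists Mxd4 (3.34, SE 0.19) and Mxd1 (1.88, SE 0.28) were the genes that rose. The nucleolar proteins Ncl (-1.84, SE 0.11) and Npm1 (-1.44, SE 0.11) and Nop56, part of the box C/D snoRNP (-2.66, SE 0.15), fell. Npm1 was at 239, 228 and 218 at 0h and at 90.1, 83.5 and 78.3 at 12h. Max, the partner of both MYC and the MXD proteins, was not called (-0.12, SE 0.23).

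**Figure D4:**
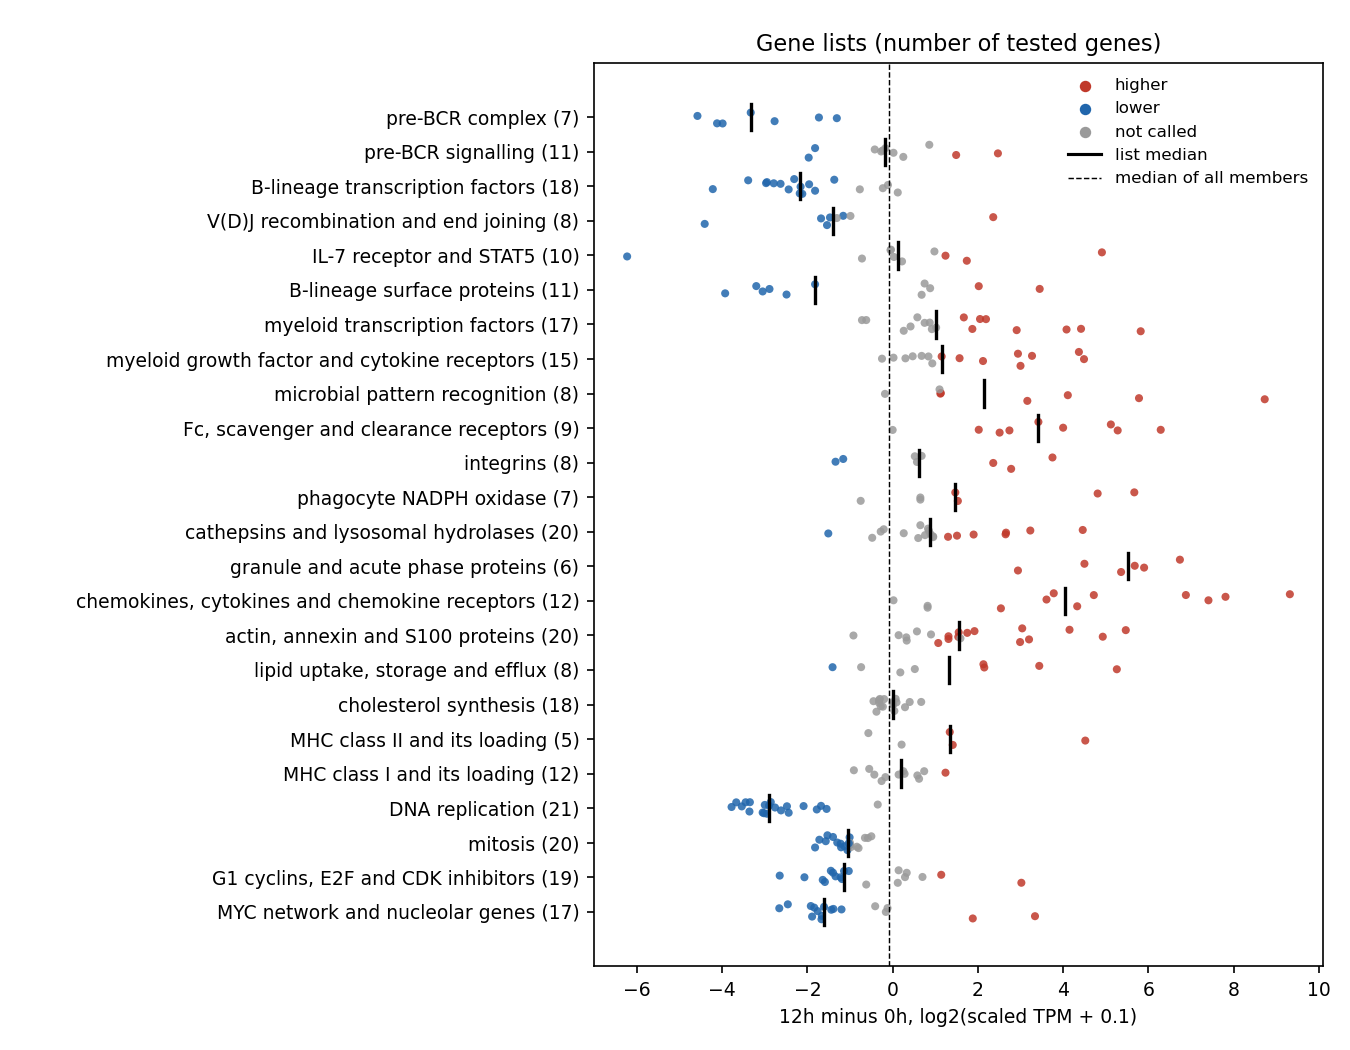
Log2 fold change of 12h against 0h (x axis) for each tested gene of the lists (rows), coloured by call, with a black bar at the list median and a dashed line at the median of all genes, -0.08. The replication list lies at a median of -2.90 with 20 of 21 genes lower, and cholesterol synthesis at 0.00 with none called. The granule list lies at 5.52 with 6 of 6 higher, of which all but Lyz2 passed the limit through 12h alone.

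The 12 largest changes in each direction included genes outside the lists. They were taken among called genes with a symbol, a mean of at least 5 TPM over the 6 libraries and no overlap between 0h and 12h. Hp, haptoglobin, was listed at 0 at 0h and was at 36.3, 38.3 and 40.9 at 12h. Vsir (VISTA, an inhibitory ligand) went from 0, 0 and 0.0476 to 34.1, 38.6 and 36.4. Gpr84, a receptor for medium-chain fatty acids, went from 0, 0.0761 and 0.179 to 21.6, 21.7 and 21.4, and Cd33 from a listed 0 to 13.2, 14.0 and 10.5. H19, an imprinted long non-coding RNA, went from 336, 348 and 358 to 2.03, 1.72 and 2.08 (SE 0.12). It had the largest decrease of this set with 0.1 added, whereas with 0.01 added that of Snora31 was larger (-9.84 against -7.48). Fosb, an AP-1 subunit, went from 11.5, 10.7 and 12.4 to 0.141, 0.171 and 0.111, Ptprcap, a partner of CD45, from 23.6, 27.8 and 32.8 to 1.88, 0.988 and 1.31, and Dpp4, a membrane peptidase, from 9.78, 11.4 and 9.96 to 0.853, 0.413 and 0.384. Cdca7, a MYC and E2F target, went from 21.6, 22.2 and 21.7 to 1.25, 1.32 and 1.37. Small RNA genes (Gm22398, Snora31, Gm25636) and the processed pseudogene Gm10060 were also among them. Gm10060 and Gm25636 varied widely, with 12h libraries of 0, 15.4 and 0 and of 0, 5.80 and 0, and both calls were lost under several settings. The labels do not say whether strand was kept, so antisense and overlapping genes cannot be told apart.

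To place 12h within the conversion, the same genes were compared between 48h and 12h. This comparison shares its 12h libraries with the one above, so the values are given side by side. Between 12h and 48h, 597 genes rose (6.56%) and 861 fell (9.46%), 1458 in all (16.0%). This balance rests on the scaling, since without it 214 rose and 3104 fell, and the median over all genes went from -0.13 to -0.84 on the log2 scale. Unless stated, the calls named below held under every scaling.

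Of the pre-B cell receptor, Igll1 (log2 fold change -2.28, SE 0.20), Vpreb1 (-1.61, SE 0.22) and Vpreb3 (-2.52, SE 0.21) fell further, while Ighm rose again, from 3.58, 4.08 and 3.47 at 12h to 16.6, 17.8 and 18.0 at 48h (2.21, SE 0.12, adjusted p = 2.47e-04, limma). Il7r rose from 0.0281, 0 and 0 to 1.18, 0.934 and 1.24, below its 0h libraries, and Cxcr4 to 1.93, 2.40 and 2.51 (2.00, SE 0.32). Pax5 (0.99, SE 0.17; higher after quantile normalization), Ebf1 (0.05, SE 0.20) and Lef1 (-0.01, SE 0.38) were not called, whereas Myb fell again, to 0.398, 0.585 and 0.758 (-2.63, SE 0.26). Blnk, Foxo1 and Tcf4 were called higher, but none of the 3 without scaling, and Foxo1 and Tcf4 were also not called after rescaling without the 20 most abundant genes.

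Some myeloid genes were near their 48h level by 12h, others were still low, and others rose at both steps. With the median-of-ratios scaling, of the genes higher at 12h, 8 of 9 in the chemokine list rose again by 48h. So did 5 of 7 lysosomal genes and 6 of 8 antibody and clearance receptors. Over all 1142 genes higher at 12h, 215 rose again, 83 fell and 844 were not called. In other lists fewer rose again: 1 of 4 oxidase genes, 1 of 13 of the actin list and 0 of 8 myeloid transcription factors. In the chemokine, lysosomal and clearance lists some of the later calls were lost without scaling. Lyz2 (-0.17, SE 0.12), Spi1 (0.39, SE 0.11), Tlr2 (0.48, SE 0.10), Csf2rb (0.25, SE 0.21), Fosl2 (-0.08, SE 0.16) and Ncf1 (-0.64, SE 0.14) were not called between 12h and 48h, though Ncf1 was called lower without scaling. Mmp12 rose from 2.55, 2.35 and 2.09 to 781, 802 and 544 (8.17, SE 0.18, adjusted p = 2.43e-05, limma), Fcgr3 to 62.3, 66.4 and 62.5 (3.80, SE 0.10), Cd74 to 209, 221 and 224 (4.84, SE 0.09) and Ccr2 to 60.9, 57.7 and 51.0 (4.22, SE 0.12). Cd68, whose 12h libraries overlapped those of 0h, was at 24.2, 25.2 and 28.4 at 48h (3.33, SE 0.16). Ctss and Lgmn rose by 3.17 and 3.19 on the log2 scale, and Lgmn thereby passed its 0h level, at 30.5, 30.4 and 29.0. Of the lysosomal list 16 of 20 rose, and 8 did so without scaling, among them Ctsb, Grn, Npc2, Lamp1 and Lamp2. B2m reached 1406, 1368 and 718, and Jun (2.51) and Fos (2.29) rose.

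A further set was higher at 12h than at 48h. Camp went back from 6.20, 7.76 and 8 to 0.287, 0.572 and 0.665 (-3.66, SE 0.31), Serpinb1a to 6.85, 8.28 and 8.71 (-2.28, SE 0.17), and Nr4a1 to 1.08, 0.934 and 0.519 (-2.70, SE 0.28). Gfi1 (-2.22, SE 0.28), Prkcb (-1.45) and Anxa2 and Anxa3 (-2.55 and -2.65) fell too, as did Flna (-1.41, SE 0.21). Gpr84 went from 21.6, 21.7 and 21.4 to a mean of 2.02. Mmp8, which like Camp marks neutrophils, did the opposite and rose to 57.7, 60.3 and 37.5.

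In the cell cycle lists, all 20 mitosis genes fell between 12h and 48h (19 after quantile normalization, where Ttk was not called), and their summed level went from 79.9 ± 5.13 to 3.15 ± 0.817 (SD, n = 3 each), while 10 of 21 replication genes fell, 18 without scaling and 6 after quantile normalization. Ccna2 was at 0.0638, 0.0418 and 0 at 48h (-5.09, SE 0.27) and Mki67 at 0.112, 0.209 and 0.0665 (-5.02, SE 0.31). Ccnd1, which had fallen at 12h, rose from 7.44, 7.77 and 6.29 to 34.6, 34.6 and 36.6 (2.29, SE 0.12), above its 0h libraries of 14.7, 20.3 and 22.9. Of the cholesterol synthesis list, where none was called at 12h, 7 of 18 fell by 48h and 17 without scaling.

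**Figure D5:**
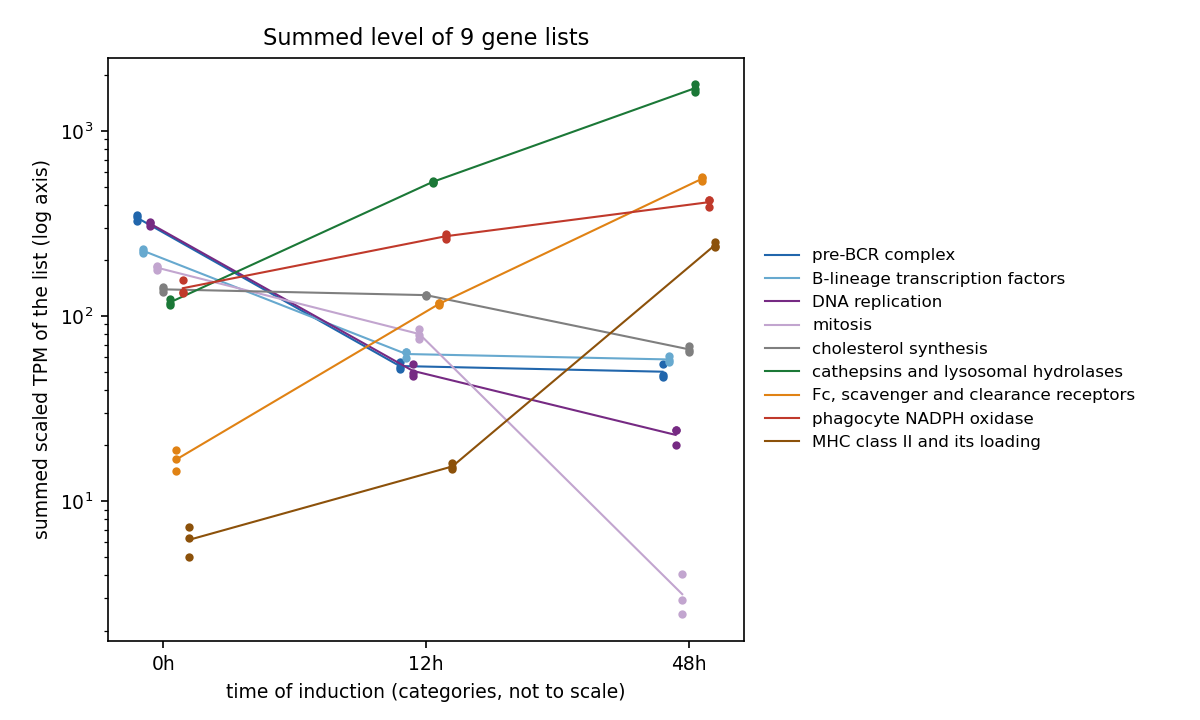
Summed level of all genes of 9 lists (scaled TPM, log axis) in each library at 0h, 12h and 48h, with points for libraries and lines for means. The pre-B cell receptor sum has most of its decrease by 12h (340, 53.7 and 50.1). The mitosis sum falls at both steps, by the larger ratio after 12h (183, 79.9 and 3.15). The lysosomal sum increases at both steps (118, 530 and 1703).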

How the data were processed

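Total RNA depleted of ribosomal RNA was sequenced from C10 cells, with 3 libraries per time point. According to the submitters' processing notes, reads were trimmed with Trim Galore 0.6.2 and mapped with HISAT2 2.1.0 to mm10, and the authors merged technical replicates and deposited TPM from RSEM for the genes of Ensembl release 96. TPM keep no depth, and no count test was possible. The lists of promoter interactions were not used here.

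TPM were divided by median-of-ratios size factors from all 12 libraries. The genes with a mean of at least 1 TPM at 0h and 12h were tested as log2(scaled TPM + 0.1) with limma 3.58.1 in R 4.3.3 (lmFit and eBayes with a trend), with Benjamini-Hochberg adjustment, and the same genes were compared between 48h and 12h. The script was tested on simulated data. The members and the gene lists were chosen with earlier results of these data known. Named genes are list members and the 12 largest changes in each direction. The latter were taken among called genes with a symbol, a mean of at least 5 over the 6 libraries and no overlap between 0h and 12h. Positions are from GENCODE M21 and promoters from RefSeq (GRCm38.p6). Other scalings, pseudocounts and filters, and leaving out each library, were tried. Some genes are not reported here.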

Additional observations from a re-analysis of the deposited data

How the results depend on the processing

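Between 12h and 0h, 1142 genes rose and 1285 fell. The number that rose was 1831 with a mean TPM of at least 0.1, 1732 with no filter, 502 with at least 5, 1749 without scaling, 414 with a fold over 4 and 1835 with no fold threshold. The number that fell was 539 with at least 5 TPM, 747 without scaling, 844 with a pseudocount of 1, 305 with a fold over 4 and 2292 with no fold threshold. Leaving out 1 library at a time gave 1049 to 1162 and 1162 to 1326. Between 48h and 12h, the 597 that rose became 208 with at least 5 TPM, 214 without scaling, 393 after rescaling without the 20 most abundant genes, 170 with a fold over 4 and 972 with no fold threshold. The 861 that fell became 470 with at least 5 TPM, 3104 without scaling, 487 with a pseudocount of 1 and 262 with a fold over 4. Leaving out 1 library gave 458 to 667 and 521 to 1108, and without 12h replicate 1, 2 or 3 the number that fell was 562, 521 and 543. The cause of these moves was not tested, other than by what each setting changes in the genes tested or in the threshold. With the replicate number as a block, 1131 and 1268 genes were called at 12h against 0h, and 588 and 795 at 48h against 12h. The deviations of same-numbered libraries correlated at 0.045, -0.035 and 0.117 between 0h and 12h and at 0.186, 0.042 and 0.317 between 12h and 48h. Not every library correlated best with its own number, so the numbers were not taken as pairs, but replicate 3 correlated negatively with the other numbers between 12h and 48h (-0.284 to -0.074) and had the lowest rRNA and mitochondrial shares at each time point, and what its libraries share was not tested. Of 6315 values of single genes under the alternatives, 5989 kept their call, 201 lost one, 125 gained one and none changed sign as a called value. Without scaling, Egr1, Il3ra, Lamp1, Lamp2, Ccr2, Tnf and B2m were called higher at 12h.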
